A study of Mus musculus with 9 samples.

Results

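Most of the genes described here encode proteins of the neutrophil's primary (azurophil) granules or proteins that pack, activate or restrain them. Ms4a3 and Clec5a encode membrane proteins of myeloid cells instead. The genes are Mpo, Elane, Prtn3, Ctsg, Ctsc, Serpinb1a, Srgn, Ms4a3, Fcnb and Clec5a. They are 10 of the 18193 genes that the array's annotation names alone on at least 1 probe set. They were listed by function, with earlier results of these data known. Every probe set assigned to one of these symbols alone was taken, 13 of 45037 without the controls. Ctsc has 3 probe sets, Serpinb1a 2 and the other 8 genes 1 each. Expression was read on 9 Affymetrix arrays from sorted granulocyte-macrophage progenitors (GMPs), the bone marrow cells from which neutrophils and monocytes arise. All 3 groups were EYFP-positive cells of a donor line with Cebpa-Cre, the R26-LSL-Eyfp reporter and floxed Dicer1, and there were 3 arrays each of Dicer wild type, Dicer heterozygous deletion and Dicer null cells. The design text calls these groups wt control, -/wt and fl/fl. Dicer1 encodes the enzyme that cuts microRNA precursors.

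The donor cells were taken from fetal livers on embryonic day 13.5 and given to C57BL/6 recipients aged 6 to 8 weeks after 8.5 Gy of irradiation, and tissues were studied 6 to 10 weeks later. One limit of the model is that the Cebpa-driven Cre both deletes Dicer1 and switches on the reporter, so only cells that had expressed Cre were sorted, and deletion was not measured in each cell. A fetal liver typically supplied 2 recipients, and the labels do not tell separate donors apart. All p-values rest on the variation among these samples, some of it possibly technical. In bulk samples of this kind, fewer cells of a type and less RNA per cell cannot be told apart.

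Primary granules form at the promyelocyte stage, when the genes for their contents are transcribed most strongly. Myeloperoxidase makes hypochlorous acid from hydrogen peroxide, and the serine proteases neutrophil elastase, proteinase 3 and cathepsin G digest engulfed microbes. The proteases are made as inactive precursors whose N-terminal dipeptide is cut off by dipeptidyl peptidase 1, the product of Ctsc. Protease that escapes into the cytosol is blocked by the serpin encoded by Serpinb1a, and the proteoglycan serglycin, encoded by Srgn, holds the contents in the granule matrix.

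Signals are deposited MAS5 values on a linear scale, with the same trimmed mean on every array. On these arrays mean Dicer1 signal fell from wild type through heterozygous to null cells, but not every step passed. Its probe set 1460571_at read 244, 228 and 223 on the wild-type, 169, 201 and 187 on the heterozygous and 115, 101 and 97.2 on the null arrays. The null mean was 105 against 232 in wild type. On this probe set and on 1427941_at, null against wild type gave log2 changes of -1.07 and -1.12 (limma adjusted p = 3.58e-05 and 7.38e-05). Heterozygous against wild type gave -0.31 (adjusted p = 0.261, not passed) and -0.72 (adjusted p = 0.00973). Null against heterozygous gave -0.76 (adjusted p = 0.000823) and -0.41 (adjusted p = 0.0557, not passed). GMP markers were present on all arrays, with Cd34 at 666 to 897 and Kit at 112 to 181, while Cd3e of T cells, Cd79a and Pax5 of B cells and C1qa of macrophages read at most 14.9 on any array. Other genes on the same marker lists were well measured: Cd79b read 131 to 178 and Ighm 354 to 1221 (B lymphoid), Nkg7 726 to 1153 (T and NK lymphoid), and F13a1 3647 to 4881 and Ccr2 640.3 to 2242 (monocyte), and those that differed between genotypes are given with the marker results. Log2 values of all tested probe sets correlated at 0.980 to 0.986 within a genotype and at 0.967 to 0.982 between genotypes. Wild-type replicate 2 stood apart: Xist read 2609.6 there against 16.4 to 30.2 on the other 8 arrays, which instead carried the Y-linked Eif2s3y at 622 to 859, although all samples are labelled female. The same array was also high in Car1 (631 against 43.1 to 188) and Pf4 (189 against 17.7 to 41.0), markers of the erythroid and megakaryocyte lineages. Results that turn on this array are given with and without it.

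The granule enzymes Mpo, Elane, Prtn3 and Ctsg did not pass the test between any genotypes, while the activator Ctsc, the inhibitor Serpinb1a and the lectin Fcnb rose in Dicer null GMPs. In null against wild type, 6 of the 13 probe sets rose, the 3 of Ctsc, the 2 of Serpinb1a and that of Fcnb, and none fell (limma, adjusted p under 0.05). An unadjusted p under 0.05 was reached by those 6 and by 1 that was lower, that of Elane, where 10.3% of all reached it higher and 15.5% lower. Over all 27022 probe sets tested, 5.05% were called higher and 6.18% lower. Changes are differences of log2(signal + 12) between group means, a scale that understates the changes of dim probe sets. The null and wild-type arrays did not overlap for 7 of the 13, against 30.1% of all. The 7 include the 3 of Ctsc and the 2 of Serpinb1a, beside those of Fcnb and Ctsg. Probe sets of the same gene are not separate genes, and by gene 3 of the 10 were called higher. The median log2 change was 0.13 over the 13 probe sets and -0.063 over all tested. Since the genes were chosen with earlier results of these data known, these shares describe the list and test nothing.

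In heterozygous against wild type only the Ctsc probe set 1416382_at rose and none fell, where 0.5% of all were called higher and 0.525% lower, and 3 of the 13, all higher, had an unadjusted p under 0.05, which 5.34% of all had in that direction and 6.32% in the other. For 6 of the 13, all of Ctsc, Serpinb1a and Fcnb, the groups did not overlap, against 17.2% of all. In null against heterozygous, both Serpinb1a probe sets rose and none fell, where 4.41% were called higher and 4.75% lower, and 4 of the 13, all higher, had an unadjusted p under 0.05, which 9.67% of all had in that direction and 13.3% in the other. Here 3 of the 13, of Ctsc and Serpinb1a, did not overlap, against 28.2% of all. The 3 comparisons share arrays with one another, so they are not independent views of the same genes. All 13 probe sets passed the filter on low values, a mean signal of at least 9.01.

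**Figure D1:**
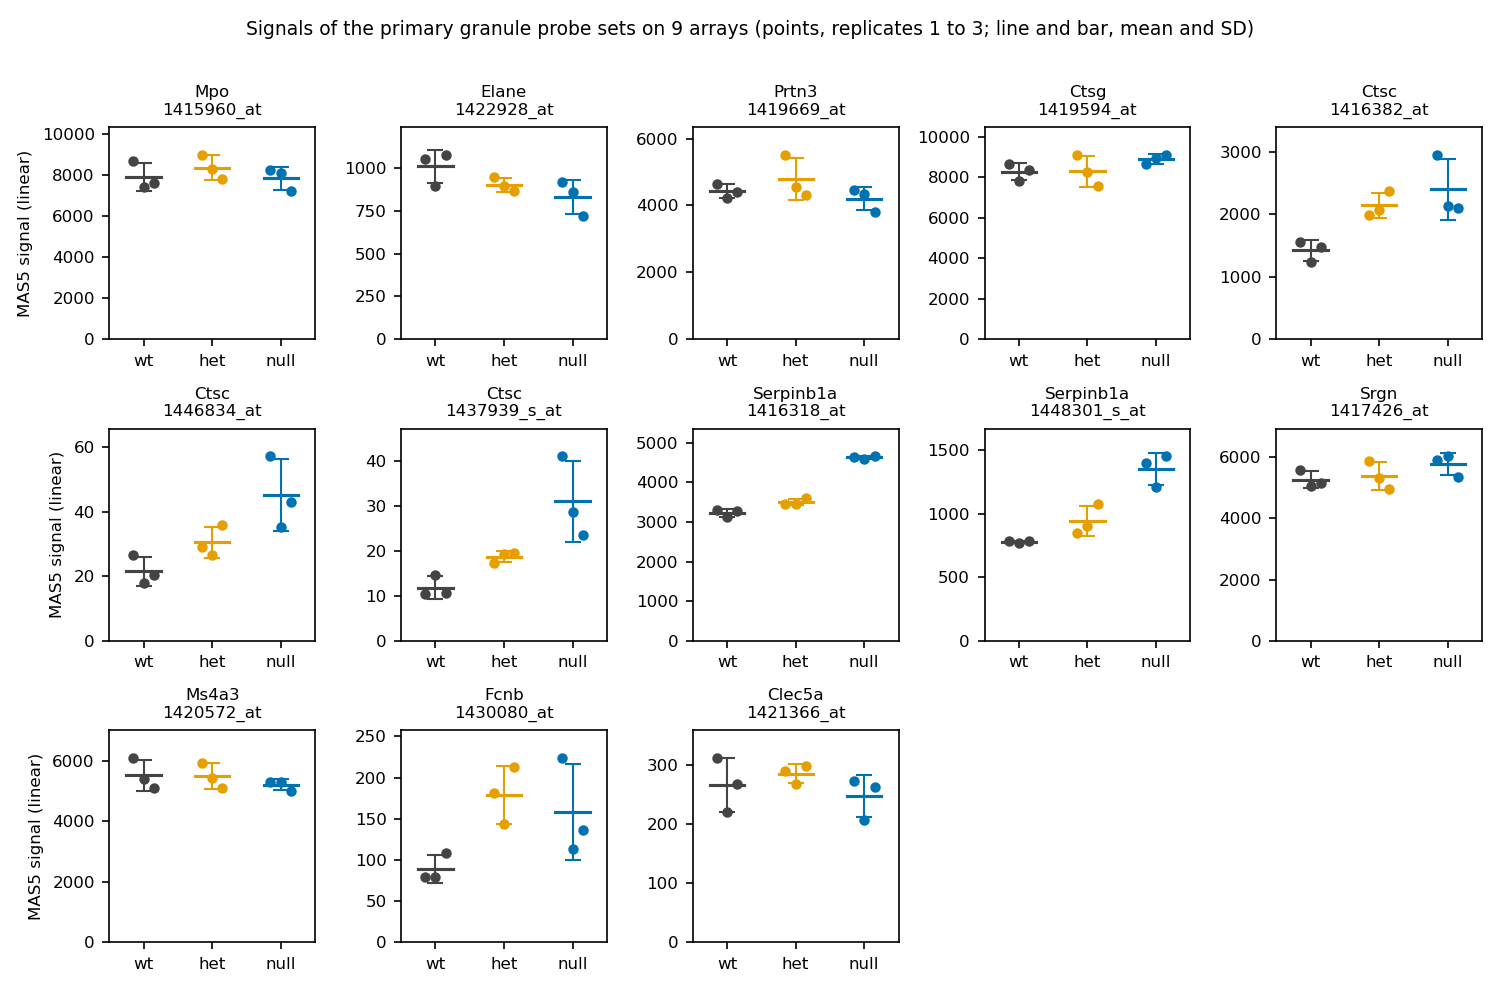
MAS5 signal (linear, from 0) of the 13 probe sets on the wild-type (wt), heterozygous (het) and null arrays, with replicates 1 to 3 as points from left to right and the mean and SD of each group as line and bar (n = 3). The null arrays lie above all wild-type arrays for Ctsc, Serpinb1a, Fcnb and Ctsg, while Mpo, Prtn3, Srgn, Ms4a3, Elane and Clec5a overlap between the groups.

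Upstream sequence of 5 of these genes is shown because the 3 serine proteases, which did not pass the test, can be set beside Ctsc and Fcnb, which rose. RefSeq (assembly GRCm38.p6) gave upstream windows for 9 of the 10 genes. Capitals mark AGGAAG or its reverse complement CTTCCT, letters typical of sites for ETS factors such as PU.1, a main regulator of myeloid genes. Each stretch is written 5′ to 3′ in the direction of its gene and ends at the base before the annotated gene: Elane chr10:79886062-79886311 (plus strand), Prtn3 chr10:79879417-79879666 (plus), Ctsg chr14:56102575-56102824 (minus), Ctsc chr7:88277835-88278023 (plus) and Fcnb chr2:28084911-28085128 (minus).
Elane: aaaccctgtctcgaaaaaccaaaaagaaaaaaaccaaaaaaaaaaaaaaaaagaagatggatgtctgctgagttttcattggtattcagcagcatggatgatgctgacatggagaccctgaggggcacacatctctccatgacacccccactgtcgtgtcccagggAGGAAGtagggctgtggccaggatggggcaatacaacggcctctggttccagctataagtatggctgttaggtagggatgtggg
Prtn3: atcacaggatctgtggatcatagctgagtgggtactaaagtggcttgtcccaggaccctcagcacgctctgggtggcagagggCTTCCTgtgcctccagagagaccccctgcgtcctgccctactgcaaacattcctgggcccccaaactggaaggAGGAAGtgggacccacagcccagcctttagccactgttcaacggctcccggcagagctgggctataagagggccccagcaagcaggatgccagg
Ctsg: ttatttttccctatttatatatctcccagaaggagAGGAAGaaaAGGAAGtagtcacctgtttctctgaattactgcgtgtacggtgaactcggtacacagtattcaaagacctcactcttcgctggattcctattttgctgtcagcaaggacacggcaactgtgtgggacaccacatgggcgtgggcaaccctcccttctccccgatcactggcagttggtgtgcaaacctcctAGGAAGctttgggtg
Ctsc: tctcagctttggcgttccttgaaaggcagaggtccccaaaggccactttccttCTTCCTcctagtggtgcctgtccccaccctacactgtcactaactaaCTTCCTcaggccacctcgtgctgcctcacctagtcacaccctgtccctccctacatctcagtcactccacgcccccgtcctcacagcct
Fcnb: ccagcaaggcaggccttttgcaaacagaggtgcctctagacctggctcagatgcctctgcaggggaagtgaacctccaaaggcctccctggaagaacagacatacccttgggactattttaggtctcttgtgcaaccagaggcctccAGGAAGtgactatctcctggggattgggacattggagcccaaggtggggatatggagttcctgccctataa

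These stretches hold the letters once in Elane and Fcnb, in 2 places in Prtn3 and Ctsc, and in 3 places in Ctsg. Elane and Prtn3 are neighbours on chromosome 10 with 3137 bases between the end of Prtn3 and the start of Elane, and both lie on the plus strand. Over windows of 250 bases, AGGAAG was found on either strand in 8 of the 10 windows of these genes and in 29.5% of all 32851 windows. Not all of these bases lie upstream of the annotated gene. In the Ctsc window 61 bases and in the Fcnb window 32 lie inside it. Srgn has 2 windows, 1 of them wholly inside the gene, and neither holds AGGAAG. The C/EBP letters TTNNGNAA were found in 4 of the 10 windows (36.8% of all), the RUNX letters TGTGGT in 3 (14.0%) and the MYB letters AACNG in 9 (74.2%). TTNNGNAA stood in windows of Srgn, Ms4a3, Fcnb and Clec5a, and not in those of Mpo, Elane, Prtn3, Ctsg and Ctsc. For Srgn, both TTNNGNAA and TGTGGT stood only in the window inside the gene. Each was searched on both strands, and none of the 4 contains another. A match is a description of letters and not of a bound site.

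Mpo (chromosome 11, 87793784 to 87804412, GRCm38.p6) encodes the heme peroxidase of the granule. Its probe set 1415960_at read 8695, 7440.3 and 7598 on the wild-type arrays, 8989, 8292 and 7798 on the heterozygous arrays and 8244, 8091 and 7201 on the null arrays. The 3 groups overlapped, with the highest value on a heterozygous array and the lowest on a null array. The log2 change was -0.011 in null (SE 0.082, limma adjusted p = 0.954, 95% interval -0.19 to 0.16) and 0.080 in heterozygous cells against wild type (adjusted p = 0.778, interval -0.095 to 0.26). The highest signal of any probe set on an array was 11317 to 15749, and how far signals as bright as Mpo's still follow the amount of RNA was not tested.

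The serine proteases were read by 1 probe set each. Elane (10: 79886312 to 79888216) encodes neutrophil elastase, and 1422928_at gave 1055, 898 and 1078 on the wild-type, 947, 894 and 865 on the heterozygous and 917, 859 and 721 on the null arrays. Only wild-type replicate 2, at 898, lay among the heterozygous values, and it was also below the highest null value. The group means of Elane were 1011 ± 98.1, 902 ± 41.1 and 832 ± 101 (SD, n = 3). Null against wild type gave a log2 change of -0.28 (SE 0.10), and missed the threshold (unadjusted p = 0.0152, adjusted p = 0.0929). Without wild-type replicate 2 it passed, at -0.36 (adjusted p = 0.0496); over all alternatives the adjusted p ran from 0.0496 to 0.334. Heterozygous cells gave -0.16 against wild type (adjusted p = 0.601).

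Prtn3 (10: 79879667 to 79883174) encodes proteinase 3. Its signals on 1419669_at were 4645, 4225 and 4402 on the wild-type, 5514, 4559 and 4298 on the heterozygous and 4473, 4331 and 3811 on the null arrays. The groups overlapped, with heterozygous replicate 1 the highest array and null replicate 3 the lowest. Its log2 change was -0.075 in null (adjusted p = 0.672, interval -0.28 to 0.12) and 0.11 in heterozygous cells (adjusted p = 0.730, interval -0.093 to 0.31), both against wild type. Ctsg (14: 56099885 to 56102574) encodes cathepsin G, and its probe set 1419594_at gave 8639.6, 7806 and 8362 on the wild-type, 9083, 8262 and 7547 on the heterozygous and 8657, 8944 and 9107 on the null arrays. The 3 null arrays all lay above the 3 wild-type arrays, by as little as 8657 against 8639.6, while the heterozygous arrays spanned both. The log2 change of 0.11 in null did not pass (SE 0.074, adjusted p = 0.405, interval -0.052 to 0.27). After quantile normalization, which rescales the brightest probe sets of every array to the same values, it was 0.19 (adjusted p = 0.0359) against wild type and 0.22 (adjusted p = 0.0164) against heterozygous cells.

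Ctsc (7: 88278024 to 88315861), the activator of these proteases, was higher in null GMPs on all 3 of its probe sets. The brightest, 1416382_at, read 1558, 1234 and 1471 on the wild-type, 1995, 2072 and 2374 on the heterozygous and 2954, 2140.0 and 2100.3 on the null arrays. Every heterozygous and every null value lay above every wild-type value, and the heterozygous and null values were interleaved. Against wild type it rose by 0.74 in null (SE 0.13, adjusted p = 0.00203, 1.67-fold) and by 0.59 in heterozygous cells (SE 0.13, adjusted p = 0.0368, 1.51-fold). The difference between null and heterozygous cells, 0.14 with an interval of -0.13 to 0.41, did not pass (adjusted p = 0.548).

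The dimmer probe sets of Ctsc gave the same direction. Probe set 1446834_at read 26.5, 17.9 and 20.3 on the wild-type, 29.0, 26.7 and 35.7 on the heterozygous and 57.1, 35.1 and 43.1 on the null arrays. Probe set 1437939_s_at read 10.3, 14.7 and 10.6 on the wild-type, 17.3, 19.4 and 19.4 on the heterozygous and 41.1, 28.6 and 23.6 on the null arrays. On both, all null values exceeded all wild-type values, and null replicate 1 was the highest of the 9 arrays, as it was on 1416382_at. They rose in null cells by 0.76 (SE 0.18, adjusted p = 0.0161) and 0.84 (SE 0.19, adjusted p = 0.0117). Without null replicate 1 neither passed (0.61, adjusted p = 0.0716, and 0.68, adjusted p = 0.0570), and 1446834_at was also lost without wild-type replicate 2 (0.68, adjusted p = 0.0576) or 3 (0.73, adjusted p = 0.0517). Heterozygous cells gave 0.34 (adjusted p = 0.511) and 0.37 (adjusted p = 0.491) against wild type, with groups that did not overlap.

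The null rise of Ctsc 1416382_at passed in each of 21 alternatives, from 0.58 to 0.82, and without wild-type replicate 2 it was 0.64 (adjusted p = 0.00848). Its heterozygous rise passed in 11 of 21, with adjusted p-values of 0.00842 to 0.207. It was lost without wild-type replicate 1 (0.0542), 2 (0.124) or 3 (0.0734) and without heterozygous replicate 1 (0.0705), 2 (0.121) or 3 (0.179), each value being the adjusted p. Heterozygous arrays also had more of the 18S ribosomal control, 2548 to 3128 against 907 to 1932 on wild-type and 1338 to 1830.4 on null arrays. The ratio of the 3′ to the 5′ Gapdh control, which rises as RNA breaks down, was 6.00 to 6.33 on heterozygous against 6.56 to 7.44 on wild-type and 7.11 to 7.72 on null arrays, so the heterozygous arrays lay below both other groups. The same ratio for beta-actin overlapped between all groups, at 7.48 to 8.45, 7.20 to 10.1 and 7.28 to 8.25 in that order. Both the 18S control and the Gapdh ratio moved with every comparison that includes heterozygous cells, and their part in those results was not tested.

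Serpinb1a (13: 32842092 to 32853206) encodes the cytosolic inhibitor of elastase, proteinase 3 and cathepsin G. Probe set 1416318_at read 3291, 3119 and 3274 on the wild-type, 3459.5, 3439.8 and 3599 on the heterozygous and 4639.7, 4586 and 4651 on the null arrays. Probe set 1448301_s_at read 784, 767 and 785 on the wild-type, 849.9, 902 and 1081 on the heterozygous and 1403, 1214 and 1452 on the null arrays. On both, the 3 genotypes fell into separate ranges in the order wild type, heterozygous, null. The spread within a genotype was small on the first, at 3228 ± 95.01, 3499 ± 86.8 and 4626 ± 35.1. On the second it was 779 ± 10.4, 944 ± 121 and 1356 ± 126, an SD of 12.8% and 9.27% of the mean in heterozygous and null cells. Both probe sets rose in null against wild type, by 0.52 (SE 0.062, adjusted p = 0.000156, 1.43-fold) and 0.79 (SE 0.098, adjusted p = 0.000202, 1.73-fold).

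Null cells were also above heterozygous cells, by 0.40 (SE 0.062, adjusted p = 0.00146) and 0.52 (SE 0.098, adjusted p = 0.00488). Heterozygous cells differed from wild type by 0.12 (adjusted p = 0.515, interval -0.018 to 0.25) and 0.27 (adjusted p = 0.288, interval 0.057 to 0.48), which did not pass. Every alternative run kept the calls of both probe sets in null against wild type and in null against heterozygous. The _s_at ending marks a probe set that the maker designed to match more than 1 transcript, so 1448301_s_at may also read relatives of Serpinb1a. Of these, Serpinb1b was at 0.310 to 11.2 on the 9 arrays, below the filter, and Serpinb1c was not analysed here.

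**Figure D2:**
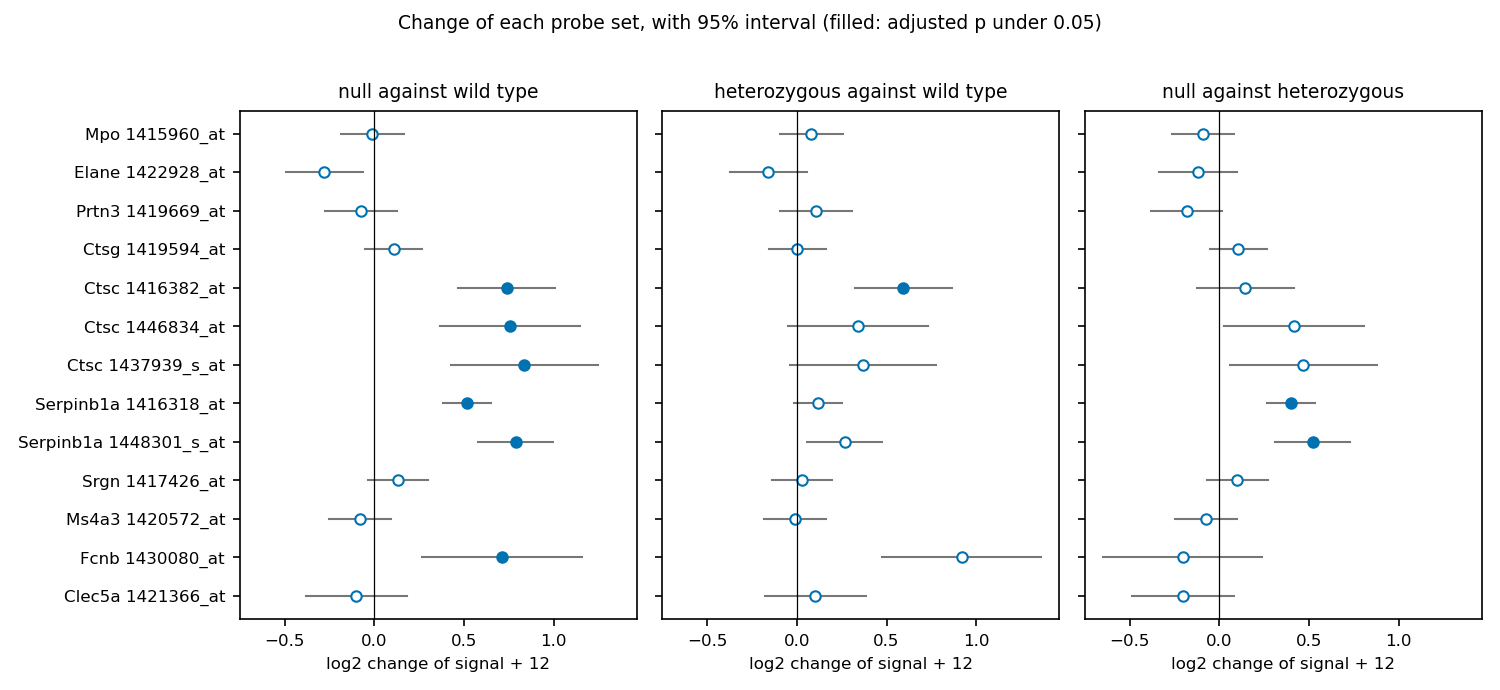
Log2 change of signal + 12 for each of the 13 probe sets in the 3 comparisons, with its 95% interval from the limma fit (bars) and filled circles where the adjusted p is under 0.05. The intervals of Mpo, Prtn3, Ctsg, Srgn, Ms4a3 and Clec5a include 0 in all 3 panels, and those of Serpinb1a exclude 0 in null against wild type and null against heterozygous.

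The proteases were set against their activator and their inhibitor within each array, as the log2 signal of the protease less that of the brightest probe set of Ctsc or Serpinb1a. Only the shift of that difference between genotypes is read, since probe sets differ in brightness for reasons other than RNA amount. How far signals as bright as those of Ctsg still follow the amount of RNA was not tested, and its shifts carry that limit. The values below are centred on the wild-type mean. Elane less Ctsc was -0.072, 0.031 and 0.041 on the wild-type arrays, -0.58, -0.72 and -0.96 on the heterozygous arrays and -1.19, -0.82 and -1.04 on the null arrays. Elane less Serpinb1a was 0.038, -0.11 and 0.076 on the wild-type, -0.19, -0.26 and -0.37 on the heterozygous and -0.66, -0.73 and -1.001 on the null arrays. Against the inhibitor the 3 genotypes did not overlap at all, and against the activator the wild-type arrays stood apart from the rest.

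Null against wild type gave mean shifts of -1.02 for Elane, -0.81 for Prtn3 and -0.63 for Ctsg against Ctsc. Against Serpinb1a the shifts were -0.80, -0.59 and -0.41. All 3 null arrays lay below all 3 wild-type arrays in each of the 6. Each shift is the protease's own change less that of Ctsc or Serpinb1a, which were already called higher. The 6 therefore restate those rises beside the proteases' changes and add no independent support. The exact two-sided permutation test gave p = 0.1 in each, the smallest that 3 arrays against 3 can give, or 0.138 adjusted over the 18 values tested, so the design cannot pass the threshold. Ctsg less Serpinb1a was the tightest, with -0.45, -0.39 and -0.39 on the null arrays against 0.036, -0.033 and -0.0034 on the wild-type arrays.

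For heterozygous against wild-type arrays the shifts against Ctsc were -0.75, -0.49 and -0.59 for Elane, Prtn3 and Ctsg, with no overlap (exact p = 0.1 each). Against Serpinb1a they were -0.27, -0.0088 and -0.11, and Prtn3 and Ctsg overlapped with wild type (exact p = 0.9 and 0.4). Between null and heterozygous arrays it was the other way round: the shifts against Serpinb1a, -0.52, -0.58 and -0.30, did not overlap (exact p = 0.1 each), and those against Ctsc, -0.27, -0.33 and -0.039, did (exact p = 0.2, 0.3 and 0.8). Against Ctsc the wild-type arrays were thus the group apart for all 3 proteases, and against Serpinb1a the null arrays were. Whether these patterns differ from each other was not tested.

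**Figure D3:**
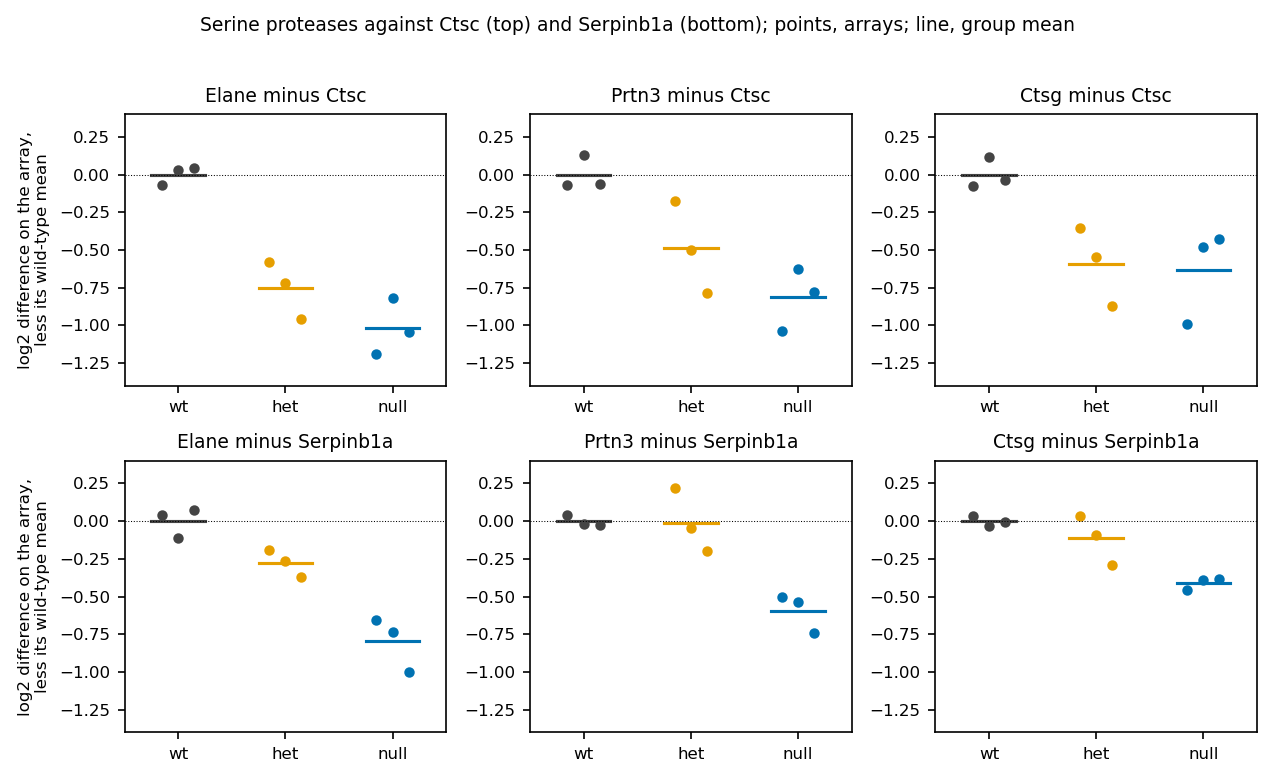
Log2 difference on each array between a serine protease and Ctsc (top) or Serpinb1a (bottom), less its wild-type mean; points are arrays (replicates 1 to 3 from left to right), lines are group means, and 0 is the wild-type mean. The null arrays lie below all wild-type arrays in all 6 panels, and the heterozygous arrays lie below all wild-type arrays in the top panels and for Elane less Serpinb1a.

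Srgn (10: 62493833 to 62527445) encodes serglycin, whose sulfated chains bind the basic proteases. Its probe set 1417426_at read 5568, 5049 and 5159 on the wild-type, 5876, 5301 and 4966 on the heterozygous and 5912, 6023 and 5357 on the null arrays, with overlap between all groups. Null against wild type was 0.13 (adjusted p = 0.321, interval -0.036 to 0.30) and heterozygous against wild type 0.031 (adjusted p = 0.929, interval -0.14 to 0.20).

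Ms4a3 (19: 11629499 to 11640851) encodes a membrane protein of GMPs and early neutrophil precursors. Its signals on 1420572_at were 6099, 5401 and 5089.8 on the wild-type, 5940.3, 5446 and 5096 on the heterozygous and 5311, 5318 and 5006 on the null arrays. The null arrays lay within the range of the others or just below it, and the log2 change was -0.082 in null (adjusted p = 0.580, interval -0.25 to 0.091) and -0.0081 in heterozygous cells (adjusted p = 0.984, interval -0.18 to 0.16). Clec5a (6: 40574898 to 40585805) encodes a C-type lectin receptor of myeloid cells that signals through the adaptors Tyrobp and Hcst. Probe set 1421366_at read 311, 219.9 and 268 on the wild-type, 289.8, 267 and 297 on the heterozygous and 272, 206 and 263 on the null arrays. Its groups overlapped, and its changes were -0.10 in null (adjusted p = 0.695, interval -0.38 to 0.18) and 0.10 in heterozygous cells (adjusted p = 0.831, interval -0.18 to 0.39). Between null and heterozygous cells Mpo, Prtn3, Srgn, Ms4a3 and Clec5a gave -0.092, -0.18, 0.10, -0.074 and -0.20, none of which passed (adjusted p 0.263 to 0.647).

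Fcnb (2: 28076479 to 28084910) encodes ficolin B, a lectin that binds sugars of microbial surfaces. Its probe set 1430080_at gave 79.2, 78.9 and 109 on the wild-type, 181, 143 and 213 on the heterozygous and 224, 114 and 137 on the null arrays. All heterozygous and all null values lay above the wild-type values, although null replicate 2 at 114 was close to wild-type replicate 3 at 109, and null replicate 1 was the highest of all. In null against wild type it rose by 0.71 (SE 0.21, adjusted p = 0.0403, 1.64-fold). Heterozygous against wild type gave 0.92 (SE 0.21, 1.89-fold), which did not pass (adjusted p = 0.0535, unadjusted p = 0.000575), and null against heterozygous -0.21 (adjusted p = 0.615, interval -0.65 to 0.24).

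Both values for Fcnb lay near the threshold. The null rise passed in 12 of 21 alternatives, with values of 0.45 to 0.90 and adjusted p-values of 0.0172 to 0.143. It was lost without null replicate 1 (0.45, adjusted p = 0.143), null replicate 3 (adjusted p = 0.0640), heterozygous replicate 1 (0.0555), wild-type replicate 1 (0.117) and wild-type replicate 2 (0.64, adjusted p = 0.110). The heterozygous difference passed in 9 of 21, among them without null replicate 1 or 2 (adjusted p = 0.0129 and 0.0384) and without the third wild-type array (0.0474).

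Markers of other cell types moved beside these results. Their counts stand beside 5.05% of all tested probe sets called higher and 6.18% lower in null against wild type. In heterozygous against wild type the shares were 0.5% and 0.525%, and in null against heterozygous 4.41% and 4.75%. Late neutrophil markers (10 of 12 listed genes measured) summed to 4035 to 7501 on wild-type, 2777 to 5059.5 on heterozygous and 2465 to 8863 on null arrays. In null against wild type 2 of their 10 tested probe sets fell and none rose, and in heterozygous against wild type 3 fell. Null against heterozygous went the other way, with 1 that rose and none that fell and a median of 0.38: Lcn2, a secondary granule protein, was 122 ± 31.1 on wild-type, 27.5 ± 11.99 on heterozygous and 160.3 ± 71.1 on null arrays (2.07, adjusted p = 0.000935). S100a8, which was not called, read 4305, 1487 and 3150.1 on the null arrays, so null replicate 1, the highest null array for Ctsc and Fcnb, was also the highest for S100a8. Ltf, which marks the later secondary granules, averaged 118 ± 50.3 on wild-type, 20.0 ± 6.95 on heterozygous and 17.2 ± 3.38 on null arrays, and so was highest where Ctsc and Fcnb were lowest. Of the heterozygous falls, Ngp was lost without heterozygous replicate 1 or 2 or wild-type replicate 2 (adjusted p 0.0502 to 0.112) and Lcn2 without heterozygous replicate 2 (adjusted p = 0.0567). Their part in these results was not tested.

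Eosinophil markers (5 of 7 genes measured) summed to 407 to 611, 577 to 753 and 665 to 1003 in wild-type, heterozygous and null cells, with Il5ra at 0.924 to 18.2 and Ccr3 at 0.275 to 3.59. Their 3 tested probe sets, of Epx, Prg2 and Prg3, all rose in null against wild type, and Epx read 79.3, 127 and 121 in wild type and 171, 254 and 233 in null cells. Prg2 was lost without null replicate 2 or 3, heterozygous replicate 2 or wild-type replicate 1 or 2 (adjusted p 0.0509 to 0.137) and Prg3 without null replicate 1, 2 or 3, heterozygous replicate 2 or 3 or wild-type replicate 1 or 3 (adjusted p 0.0569 to 0.171), and Epx with none left out. Their part in the results was not tested.

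Dendritic cell and B lymphoid lists, like Serpinb1a, set the null arrays apart from both other groups, in the opposite direction. Dendritic cell markers (8 of 8 genes measured) summed to 288 to 440.1 on wild-type, 312 to 437 on heterozygous and 165 to 202 on null arrays. Of their 10 tested probe sets 4 fell in null against wild type, 3 fell in null against heterozygous and none rose in either, all of the antigen-presenting class II genes H2-Aa and H2-Eb1. H2-Aa 1435290_x_at was lower by both (-1.37, adjusted p = 0.00124, and -1.55, adjusted p = 0.000732), while the dimmer 1452431_s_at, called against wild type, was lost without null replicate 2 or 3, heterozygous replicate 2 or wild-type replicate 1, 2 or 3 (adjusted p 0.0506 to 0.139). Itgax, Siglech and Ciita of the same list read at most 19.7 on any array.

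B lymphoid markers (8 of 9 genes measured) summed to 1228 to 1478, 1115 to 1243 and 588 to 695 on wild-type, heterozygous and null arrays. Of their 10 tested probe sets 2 fell and none rose in null against wild type and again in null against heterozygous, both of Ighm, the immunoglobulin heavy chain gene. Ighm 1427351_s_at averaged 1105 ± 121, 927 ± 51.0 and 407 ± 45.7 (-1.42, adjusted p = 1.69e-06, in null against wild type). Pax5, Ebf1 and Cd79a were at most 14.9, and Cd79b did not pass (-0.15, adjusted p = 0.420). T and NK lymphoid markers (7 of 9) summed to 1151 to 1192, 938 to 1020.0 and 758 to 988, most of it Nkg7, which is also on the list of granule contents. Both of their tested probe sets, of Nkg7 and Klrd1, fell in null against wild type, Klrd1 being lost without null replicate 1 or 3, heterozygous replicate 1, 2 or 3 or wild-type replicate 1, 2 or 3 (adjusted p 0.0554 to 0.153). Of the GMP markers' 10 tested probe sets, Fcgr3 rose (0.37, adjusted p = 0.0150) and Csf3r fell (-0.38, adjusted p = 0.0266) in null against wild type, and Csf3r fell against heterozygous cells (-0.40, adjusted p = 0.0231). Fcgr3 was lost without null replicate 2 or wild-type replicate 2 (adjusted p 0.0552 to 0.0589) and Csf3r without null replicate 1, 2 or 3 or wild-type replicate 1, 2 or 3 (adjusted p 0.0531 to 0.0722) and, against heterozygous cells, without null replicate 1, 2 or 3 or heterozygous replicate 3 (adjusted p 0.0538 to 0.0921). The part of these markers in the Serpinb1a and other results was not tested.

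Mast cell and basophil markers (7 of 8 genes measured) summed to 4389 to 6618, 3932 to 4619.7 and 5141 to 7226 in wild-type, heterozygous and null cells. Of their 8 tested probe sets 1, that of the IgE receptor chain Fcer1a, fell in null (-2.25, adjusted p = 0.00115) and in heterozygous cells (-3.11, adjusted p = 0.000277) against wild type, while 2 rose in null against heterozygous, the mast cell protease Cpa3 (0.56, adjusted p = 0.0179) and Hdc (0.44, adjusted p = 0.0232), which makes histamine. Cpa3 was lost without null replicate 2 or heterozygous replicate 1 or 3 (adjusted p 0.0642 to 0.0680) and Hdc without null replicate 2 or 3 or heterozygous replicate 1 or 3 (adjusted p 0.0605 to 0.110). Monocyte and macrophage markers (9 of 10) summed to 7108 to 9972, 9186 to 10169 and 9016 to 9534. Among their 14 tested probe sets only that of Cd14, a receptor for bacterial lipopolysaccharide, was called, and in all 3 comparisons. Cd14 averaged 33.6 ± 4.91 on wild-type, 12.3 ± 1.77 on heterozygous and 88.5 ± 8.21 on null arrays, so it rose in null against wild type (1.14, adjusted p = 0.000354) and against heterozygous (2.04, adjusted p = 8.05e-06) and fell in heterozygous against wild type (-0.90, adjusted p = 0.00843). Immediate early and heat shock genes (12 of 12), which respond to stress and handling, summed to 5298 to 6280.0 on wild-type arrays against 1070.1 to 1515 on heterozygous and 757 to 1135 on null arrays. Of their 14 tested probe sets 11 fell and none rose in null against wild type, 6 fell in heterozygous against wild type and 1, of Ier2, fell in null against heterozygous. They thus separate wild-type arrays from the rest, as Ctsc and Fcnb do in the opposite direction. The part of these genes and markers in the results was not tested.

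Other genes of the granule pathway were taken as 7 lists by function, also with earlier results of these data known. Over all tested probe sets, 5.05% were called higher and 6.18% lower in null against wild type. In heterozygous against wild type 0.5% and 0.525% were, and in null against heterozygous 4.41% and 4.75%. An unadjusted p under 0.05 (limma) was reached by 10.3% higher and 15.5% lower, by 5.34% and 6.32%, and by 9.67% and 13.3% in the same order. Among other primary granule contents, 11 genes were analysed. Of their 22 tested probe sets, 6 rose and 2 fell in null against wild type, with a median log2 change of 0.0014 against -0.063 for all probe sets. Arsb, a sulfatase, rose from 895 ± 136 to 1363 ± 177 (0.60, adjusted p = 0.00514), the mannosidase Man2b1 from 752 ± 82.4 to 1027 ± 63.4 (0.45, adjusted p = 0.00685) and the aspartic protease Ctsd from 195 ± 17.0 to 283 ± 33.8 (0.51, adjusted p = 0.0108). The others that passed, named after their values were seen, were the lysozyme genes Lyz2 (0.82, adjusted p = 0.0109) and Lyz1 (0.43 and 0.44 on 2 probe sets), which rose, and Nkg7 and Cd68, which fell by 0.40 and 0.48. Lyz2 read 1787, 1114 and 1723 in wild type and 3634, 2463 and 2134 in null cells, again with null replicate 1 the highest. Leaving out 1 array ended none of the calls of Arsb, Man2b1, Ctsd and Lyz2. Lyz1 1436996_x_at was lost without null replicate 1 or 2 or wild-type replicate 2 or 3 (adjusted p 0.0517 to 0.0968), Lyz1 1439426_x_at without null replicate 1 or 2 or wild-type replicate 2 (adjusted p 0.0560 to 0.105), Nkg7 without null replicate 1 or wild-type replicate 1 (adjusted p 0.0507 to 0.0588) and Cd68 without null replicate 1, 2 or 3 or wild-type replicate 2 or 3 (adjusted p 0.0551 to 0.127). Lyz1 and Lyz2 are near-identical copies, and probe sets may not tell them apart.

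Inhibitors other than Serpinb1a went the other way or did not pass. Slpi, a secreted inhibitor of elastase and cathepsin G, fell by 1.27 (adjusted p = 0.000261) in null against wild type and fell by 0.85 (adjusted p = 0.00547) against heterozygous cells. It read 2363, 1369 and 2199 on the wild-type, 1664, 1332 and 1331 on the heterozygous and 815, 849.9 and 707 on the null arrays, so the null arrays were the lowest, and wild-type replicate 2 was the lowest of its group. Slpi in heterozygous against wild type gave -0.42 (adjusted p = 0.322), and without wild-type replicate 2 it was -0.66 (adjusted p = 0.00981). The cystatins Cstb (-0.35, adjusted p = 0.0967) and Cst3 (-0.20, adjusted p = 0.201), inhibitors of lysosomal cysteine proteases, did not pass in null cells. Of the 7 tested probe sets of this list 1 fell and none rose in null over wild-type cells (limma; 0 higher and 2 lower at an unadjusted p under 0.05), and their median was -0.18 against -0.063 for all.

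Transcription factors known to act on granule genes had 31 tested probe sets. Of these, 2 rose and 2 fell in null against wild type, where 5.05% of all were called higher and 6.18% lower. Their median was -0.069 against -0.063 for all probe sets. Gfi1, a repressor needed for neutrophil formation, rose by 0.59 (adjusted p = 0.000899) and was also higher than in heterozygous cells (0.67, adjusted p = 0.000493). It read 666, 712 and 699 on the wild-type, 591, 650.4 and 727 on the heterozygous and 981, 1064 and 1109 on the null arrays, so only the null arrays stood apart. Cux1, a repressor of late neutrophil genes, gave opposite directions on its probe sets: 1425612_at rose (0.80, adjusted p = 0.00163) and the dimmer 1437686_x_at and 1424667_a_at fell by 0.91 and 0.77 (adjusted p = 0.0237 and 0.0419). The falls were lost without null replicate 1 or 3 or wild-type replicate 1 or 2 (adjusted p 0.0578 to 0.0968) and without null replicate 1 or 3, heterozygous replicate 2 or 3 or wild-type replicate 2 or 3 (adjusted p 0.0510 to 0.144), the rise under none of these. Irf8, which favours monocytes over neutrophils, gave -0.37 (adjusted p = 0.0581) in null against wild type, and without wild-type replicate 2 it was -0.48 (adjusted p = 0.0222).

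In null against heterozygous cells both Irf8 probe sets fell, by 1.21 (adjusted p = 0.00304) and 0.66 (adjusted p = 0.00369). Klf4, another monocyte factor, named after its values were seen, also fell there, by 0.79 (adjusted p = 0.0309), and was lost without null replicate 2 or 3 or heterozygous replicate 1 or 3 (adjusted p 0.0760 to 0.136). Of the 31 probe sets 1 rose and 3 fell in that comparison (median -0.11, all -0.051). Between heterozygous and wild-type cells only Cux1 1425612_at rose (0.74, adjusted p = 0.0117), and it was lost without heterozygous replicate 1 or 2 or wild-type replicate 1 (adjusted p 0.0597 to 0.0694). Runx1 gave 0.45 (adjusted p = 0.157) and passed without wild-type replicate 3 (adjusted p = 0.0195). Cebpe was not analysed here.

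Mpo needs heme and help with folding in the endoplasmic reticulum, and genes for both were followed. Of 31 tested probe sets, 5 rose and 1 fell in null against wild type (median 0.078, all -0.063). The disulfide isomerase Pdia3 rose from 2344 ± 75.2 to 3313 ± 108 (0.50, adjusted p = 0.000309) with 2658 ± 59.9 in heterozygous cells, and the chaperone Hsp90b1 from 3553 ± 293 to 4958 ± 261 (0.48, adjusted p = 0.00134). Alad, the enzyme of the heme pathway's second step, fell from 232 ± 42.7 in wild type to 110.3 ± 6.18 in null cells (-0.98, adjusted p = 0.000341), with 172 ± 17.1 in heterozygous cells. The others that rose, named after their values were seen, were another probe set of Hsp90b1 (0.41), the chaperone Calr (0.29) and Alas1 (0.27), the first enzyme of heme synthesis. Calr was lost without null replicate 2 or 3, heterozygous replicate 2 or 3 or wild-type replicate 1, 2 or 3 (adjusted p 0.0557 to 0.152) and Alas1 without null replicate 1, 2 or 3, heterozygous replicate 2 or wild-type replicate 1, 2 or 3 (adjusted p 0.0606 to 0.126), while the other 4 calls passed whichever array was left out. Mpo itself did not pass.

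None of the 31 passed in heterozygous against wild type (limma; 5 higher and 1 lower at an unadjusted p under 0.05), Alas1 giving 0.31 (adjusted p = 0.101) and Alad -0.39 (adjusted p = 0.230). In null against heterozygous 2 rose and 1 fell, Pdia3 and Hsp90b1 higher (0.32, adjusted p = 0.00847 for Pdia3) and Alad lower (-0.59, adjusted p = 0.0124). Alad was lost there without heterozygous replicate 1 (adjusted p = 0.0652) and Hsp90b1 without null replicate 2 or 3 or heterozygous replicate 1 or 2 (adjusted p 0.0588 to 0.1001).

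Genes that build the chondroitin sulfate chains of serglycin gave 3 rises and 1 fall among 25 tested probe sets in null against wild type (median 0.034, all -0.063). The rises were Papss2, which makes the sulfate donor (0.48, adjusted p = 0.0238), Csgalnact1, which starts the chain (0.64, adjusted p = 0.0266), and the sulfotransferase Chst11 (0.47, adjusted p = 0.0371). The fall was in the linker enzyme B3gat3, named after its values were seen (-0.60, adjusted p = 0.0461). These calls were close to the threshold. Papss2 was lost without null replicate 1 or 3 or wild-type replicate 1 or 2 (adjusted p 0.0518 to 0.0914), Csgalnact1 without null replicate 1, 2 or 3 or wild-type replicate 1 or 3 (adjusted p 0.0550 to 0.0977), Chst11 without null replicate 2 or 3, heterozygous replicate 2 or wild-type replicate 1, 2 or 3 (adjusted p 0.0555 to 0.136) and B3gat3 without null replicate 1 or 3, heterozygous replicate 1 or 2 or wild-type replicate 1, 2 or 3 (adjusted p 0.0501 to 0.156).

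Against heterozygous cells Chst11 rose by 0.70 (adjusted p = 0.00537) and Csgalnact1 by 0.59 (adjusted p = 0.0453), the latter passing in 9 of 20 alternatives and lost without null replicate 1, 2 or 3, heterozygous replicate 1, 2 or 3 or wild-type replicate 3 (adjusted p 0.0585 to 0.142). Chst11 read 245, 274 and 269.6 on the wild-type, 190.4, 222 and 256 on the heterozygous and 297, 415 and 405 on the null arrays. Only its null arrays stood above the rest. The smallest p-values of heterozygous against wild type were those of Chst12 (0.71, adjusted p = 0.258) and B3galt6 (0.28, adjusted p = 0.466).

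Genes for granule biogenesis and sorting had 1 of 34 tested probe sets higher in null than in wild-type cells and none lower (limma). Over all tested probe sets 5.05% were called higher and 6.18% lower. At an unadjusted p under 0.05, 1 of the 34 was higher and 5 were lower, where 10.3% and 15.5% of all were. Their median was -0.086 against -0.063 for all. The 1 was Ap3m1, a subunit of the AP-3 adaptor that sorts granule proteins, at 347 ± 14.7 in wild type and 479.9 ± 27.4 in null cells (0.45, adjusted p = 0.0148), lost without null replicate 3 (adjusted p = 0.0625). Vps13b (-0.69, adjusted p = 0.0731) and Hax1 (-0.24, adjusted p = 0.0946), mutated in neutropenia syndromes, did not pass. Compared with heterozygous cells, Hax1 1426187_a_at (-0.40, adjusted p = 0.0117) and the endosomal adaptor Lamtor2 (-0.40, adjusted p = 0.0164) fell in null cells. Again 1 probe set of Ap3m1 rose. Hax1 was lost there without heterozygous replicate 1 (adjusted p = 0.0540), Lamtor2 without null replicate 1 or 3 or heterozygous replicate 1 (adjusted p 0.0558 to 0.0790) and Ap3m1 without null replicate 1 or 3 or heterozygous replicate 1 or 2 (adjusted p 0.0649 to 0.118). For heterozygous against wild-type cells G6pc3 gave 0.60 (adjusted p = 0.215) and Vps13b 1434571_at -0.34 (adjusted p = 0.264).

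Around Clec5a, 1 of 9 tested probe sets of the list on its signalling rose in null over wild-type cells and none fell (limma). At an unadjusted p under 0.05, 2 were higher and 1 lower. The 1 called was of Clec7a, not a partner of Clec5a but a related lectin receptor that shares the kinase Syk. Clec7a means were 456 ± 114 for wild-type, 667 ± 62.7 for heterozygous and 688 ± 65.6 for null arrays (0.60, adjusted p = 0.0138). It was lost without null replicate 2 or wild-type replicate 2 or 3 (adjusted p 0.0521 to 0.0557). The adaptor Hcst (-0.52, adjusted p = 0.0776) and the phospholipase Plcg2 (0.20, adjusted p = 0.142) did not pass. Heterozygous against wild type, Clec7a gave 0.56 (adjusted p = 0.0911) and Tyrobp 0.25 (adjusted p = 0.469), and in null against heterozygous Hcst gave -0.59 (adjusted p = 0.0540) and Tyrobp -0.35 (adjusted p = 0.0951). Clec7a in heterozygous cells passed without wild-type replicate 1 (adjusted p = 0.00619).

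For the other granule contents, 3 rose and 1 fell in null against heterozygous, Man2b1 (0.40, adjusted p = 0.0154), Lyz2 (0.79, adjusted p = 0.0163) and Arsb higher and Cd68 lower, the last pair named after their values were seen. Man2b1 was lost without null replicate 1 or heterozygous replicate 1 (adjusted p 0.0643 to 0.0679), Lyz2 without null replicate 1 or heterozygous replicate 2 (adjusted p 0.0610 to 0.0702), Arsb without null replicate 1 or 3 or heterozygous replicate 1 or 2 (adjusted p 0.0893 to 0.119) and Cd68 without null replicate 1, 2 or 3 or heterozygous replicate 1, 2 or 3 (adjusted p 0.0689 to 0.144). Heterozygous against wild type, Nkg7 gave -0.27 (adjusted p = 0.275) and Gaa -0.29 (adjusted p = 0.521). Over all 7 lists, 18 of 159 tested probe sets rose and 7 fell in null against wild type, where 5.05% of all were called higher and 6.18% lower. In heterozygous against wild type 1, that of Cux1, rose and none fell, where 0.5% and 0.525% of all were called. There 26 had an unadjusted p under 0.05 (limma), which 5.34% of all had higher and 6.32% lower. In null against heterozygous 9 rose and 8 fell, where 4.41% and 4.75% of all were called. The alternatives for genes other than the 10 were added after seeing the data.

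**Figure D4:**
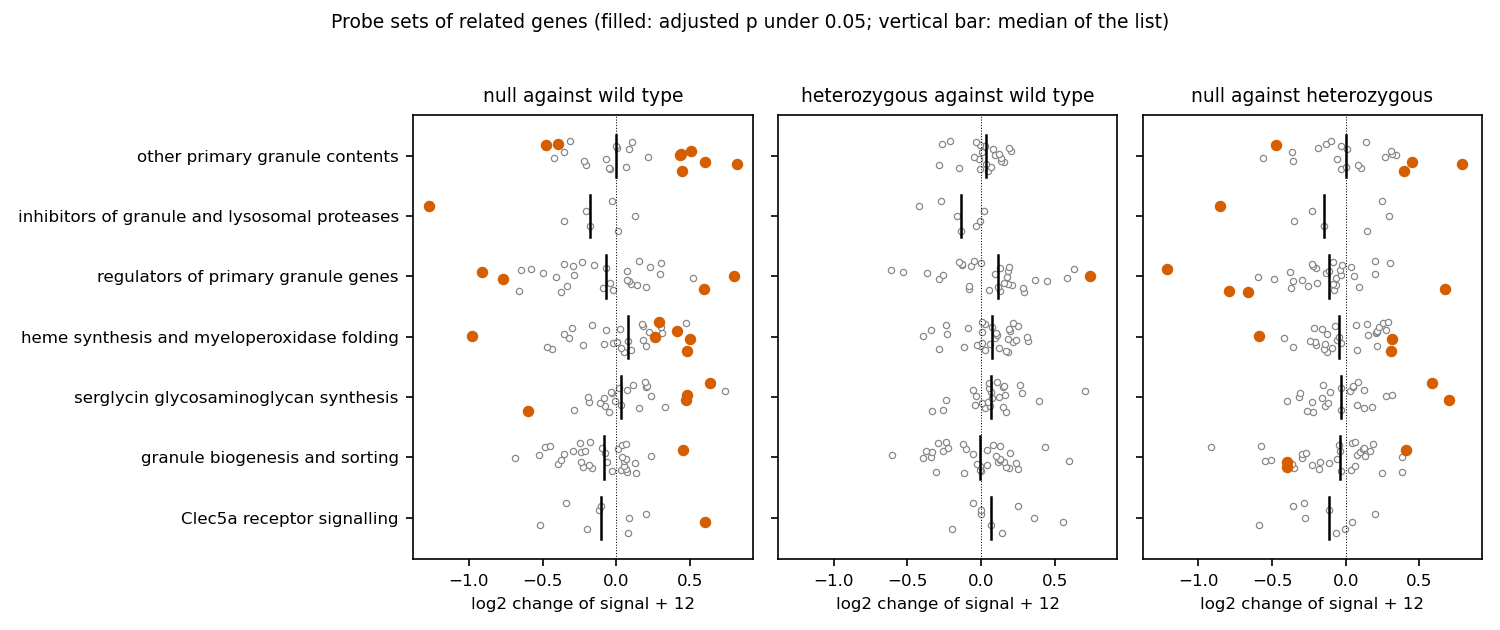
Log2 change of signal + 12 of the tested probe sets in 7 lists of related genes (lines of points) for the 3 comparisons, filled where the adjusted p is under 0.05, with a vertical bar at each list's median. Calls are spread over both directions in the panels with null cells (18 higher and 7 lower where null cells are set against wild type), and the middle panel has 1.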

How the data were processed

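The deposited table holds 1 linear signal intensity per probe set and array, which the authors made with MAS5, per the submitters' processing notes. Its version, settings, detection calls and scanner files are not given in the sources used here or were not used here. The 2% trimmed mean of the deposited intensities was 100 on every array, so a shift common to most transcripts would not show. Arrays have no read depth; their number sets the precision. RNA was extracted from cells sorted into lysis buffer and labelled with biotin, per the labels' protocols.

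The table had 45101 probe sets, of which 64 controls were left out. The platform annotation gave 1 symbol to 34945 of the other 45037, several to 932 and none to 9160. Only those with 1 symbol were named. All 10 genes matched RefSeq by symbol (GRCm38.p6), which gave positions and upstream sequence.

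Signals were taken as log2(signal + 12) and fitted over probe sets with limma 3.58.1 in R 4.3.3 (lmFit, eBayes with an intensity trend, no block) on all 9 arrays, with 6 residual and 7.98 prior degrees of freedom. The 27022 probe sets whose mean reached the 40th percentile (a signal of 9.01) were tested and 18015 were not. Tests were two-sided, with Benjamini-Hochberg adjustment over all tested probe sets of a comparison and calls at an adjusted p under 0.05. Differences between 2 probe sets within an array were compared by exact two-sided permutation tests. Group labels came from the sample titles and genotypes. The fit was tested on simulated data.

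The members, the lists of related genes and the markers were chosen with earlier results of these data known. Named genes are the 10 members with every probe set, Dicer1, up to 3 genes of each list with the smallest unadjusted p in null against wild type and up to 2 in the other comparisons, and markers whose values stand beside a result. Alternatives changed the pseudocount (1 and 32), the filter (none, 60th percentile), the normalization (quantile, cyclic loess), the variance trend, the arrays fitted, array weights, the summary over a gene's probe sets and a block for the replicate number, and left out each array in turn.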

Additional observations from a re-analysis of the deposited data

How the results depend on the processing

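Both Serpinb1a probe sets in null against wild type and null against heterozygous, and Ctsc 1416382_at in null against wild type, kept their direction and stayed past the threshold in all alternatives run. Over single genes and pairs, no value that had passed changed sign. The count of probe sets called in null against wild type was 3036, and 1797 with no intensity trend, 1941 with the brightest probe set per gene, 1426 with the mean of a gene's probe sets and 1835 to 3047 with 1 array left out. In heterozygous against wild type it was 277, and 181 with no filter, 138 with no trend, 172 with the brightest, 92 with the mean and 147 to 284 with 1 array left out. In null against heterozygous it was 2475, and 1153 with no trend, 1281 with the mean and 1238 to 2619 with 1 array left out. The 2 summaries by gene test fewer features.

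Members called in null against wild type, 6 of 13 probe sets, were 3 of 10 genes with the brightest probe set or the mean, and 3 to 6 with 1 array left out, 3 of them without null replicate 1. In heterozygous against wild type the 1 call became 0 with no filter, no trend or the gene mean, 2 with the 60th percentile, cyclic loess, the 2 groups alone, the brightest probe set or the replicate block, and 0 to 2 with 1 array left out. Against heterozygous cells the 2 calls, both of Serpinb1a, were 1 gene with the brightest probe set or the mean.

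Sign changes were seen in values that had not passed. Quantile normalization gave 0.071 and 0.031 for Mpo in null against wild type and against heterozygous, -0.038 for Ctsg in heterozygous against wild type and 0.071 for Ctsg less Ctsc in null against heterozygous. Cyclic loess gave -0.041 for Ctsg and -0.0058 for Srgn, and array weights -0.014 for Ctsg, in heterozygous against wild type. With 1 array left out, null against wild type ran from -0.054 to 0.059 for Mpo and -0.23 to 0.019 for Clec5a. Heterozygous against wild type ran from -0.065 to 0.068 for Ctsg, -0.034 to 0.087 for Srgn, -0.066 to 0.064 for Ms4a3, -0.021 to 0.22 for Clec5a and -0.12 to 0.085 for Prtn3 less Serpinb1a. Null against heterozygous ran from -0.014 to 0.23 for Ctsc 1416382_at and -0.18 to 0.14 for Ctsg less Ctsc. The cause was not tested.

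Nothing in the labels says that a replicate number is shared between genotypes. Deviations of same-numbered arrays correlated at -0.030 to 0.070, 0.0023 to 0.10 and 0.031 to 0.18 for numbers 1, 2 and 3, and 1, 3 and 3 of their 3 arrays correlated best with their own number. With the replicate block the probe sets called numbered 3455, 334 and 2770 in null against wild type, heterozygous against wild type and null against heterozygous, and 6, 2 and 2 of the 13. Fcnb passed in heterozygous against wild type with the block (adjusted p = 0.0225).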
